A study of Mus musculus with 3 samples.

Results

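The Rtp and Reep genes encode small membrane-associated proteins named for carrying receptors to the cell surface. They were taken from the deposited expression table by gene symbol, and all 10 members (Rtp1 to Rtp4 and Reep1 to Reep6) were among its 34617 rows. Each was measured in 2 RNA libraries of mouse main olfactory epithelium, 1 per group, from animals aged 4 weeks. The mOSN library holds RNA of sorted cells positive for OMP-ires-EGFP, a green reporter under Omp, the gene of the olfactory marker protein, in strain C57BL/6J, and represents mature olfactory sensory neurons. The O/Tet3 library holds RNA of sorted cells from OMP-tTA / tetO-Tet3-GFP mice of strain FVB (written Fvb in the labels), in which a transactivator driven at Omp switches on a Tet3-GFP transgene. Tet3 is an enzyme that oxidises 5-methylcytosine to 5-hydroxymethylcytosine. The transgene follows the activity of Omp, and the number of animals behind each library is not stated in the labels. A sample of immunoprecipitated DNA of the same Tet3 mice is not analysed here.

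In olfactory neurons the odorant receptors, which are made in the endoplasmic reticulum, reach the ciliary membrane poorly by themselves, and the zinc finger proteins Rtp1 and Rtp2 are known to help them leave the endoplasmic reticulum and reach the surface. Reep1 was found in the same search for such helpers. The Reep family as a whole shapes membranes of the endoplasmic reticulum: Reep5 and Reep6 belong to the branch that curves its tubules, Reep3 and Reep4 clear it from chromosomes in dividing cells, and Reep1 and Reep2 are neuronal proteins mutated in hereditary spastic paraplegia. Rtp3 is best known from liver and Rtp4 is induced by interferon.

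With 1 library per group no test between groups was possible, and no p-value or replicate error is given. Genotype, strain and library differ together and cannot be told apart as sources of any difference. In bulk RNA, fewer cells of a type and less RNA per cell cannot be told apart either. Levels are the linear values behind the deposited log2(value + 1), whose unit the file does not name. A log2 ratio sets O/Tet3 over mOSN on the scale of log2(value + 1), on which differences of low genes come out too small, and a fold is the plain ratio of values. Rows with a value of 1 or more in at least 1 library were compared, and called higher from a log2 ratio of 1 upward (2-fold in value + 1) and lower from −1 downward. Over the 9934 rows at 1 or more in both libraries the median log2 ratio was 0.21, and centred ratios have this median subtracted.

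Promoter windows of RefSeq (build GRCm38.p6, from 250 bases before to 50 bases after a transcript start) are shown for 3 of the 10 members. Windows of the other members were left out here and not searched singly, whether or not RefSeq holds them. Any that RefSeq holds still count in the shares of all windows given below. The members left out include all 6 with a larger value in O/Tet3. The 3 are therefore an incomplete set, and whether motif matches go with lower or higher levels was not tested. Rtp2 and Reep1 are both abundant in the mOSN library and lower in O/Tet3, while Rtp3 is at a trace in both. The capitals mark matches to CCCNNGGG, the palindromic core of the site bound by Ebf factors, searched on both strands.
Rtp2: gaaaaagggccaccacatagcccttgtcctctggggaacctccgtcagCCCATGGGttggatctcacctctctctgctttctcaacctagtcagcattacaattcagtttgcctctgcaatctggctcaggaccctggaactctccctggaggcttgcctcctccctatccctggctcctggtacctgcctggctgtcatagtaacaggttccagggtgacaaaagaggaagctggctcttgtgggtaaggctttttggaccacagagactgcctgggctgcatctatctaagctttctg
Reep1: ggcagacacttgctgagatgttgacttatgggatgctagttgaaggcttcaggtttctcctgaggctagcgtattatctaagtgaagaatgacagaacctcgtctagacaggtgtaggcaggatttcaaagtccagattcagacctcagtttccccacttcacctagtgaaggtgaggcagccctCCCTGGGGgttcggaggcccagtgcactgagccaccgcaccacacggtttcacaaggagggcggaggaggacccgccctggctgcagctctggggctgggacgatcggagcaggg
Rtp3: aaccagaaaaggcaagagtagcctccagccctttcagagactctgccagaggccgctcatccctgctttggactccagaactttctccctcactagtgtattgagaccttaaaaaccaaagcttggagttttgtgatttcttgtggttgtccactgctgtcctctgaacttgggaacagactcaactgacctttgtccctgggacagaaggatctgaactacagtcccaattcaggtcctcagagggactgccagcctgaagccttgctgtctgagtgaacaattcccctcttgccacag
The Rtp2 window lies at chr16:23930745-23931044 on the minus strand, the Reep1 window at chr6:71707431-71707730 on the plus strand, and the Rtp3 window at chr9:110989664-110989963 on the minus strand. The windows of Rtp2 and Reep1 each held 1 match, CCCATGGG and CCCTGGGG, and the Rtp3 window held 0. Among all 32851 RefSeq windows 13.7% held this core. The homeodomain motif TAATTA, of the kind Lhx2 binds, was in 5.29% of all windows, the wider TAATNA, which includes it, in 26.5%, and both in 0 of the 3. A match describes letters in this window and not binding. The Reep1 window held 9 CG dinucleotides, against 1 each in the Rtp2 and Rtp3 windows and a median of 7 over all windows.

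Rtp1 and Rtp2, the helpers of odorant receptors, were the most abundant members in both libraries and both were lower in O/Tet3. Rtp1 reached 108 in mOSN against 28.3 in O/Tet3, 3.82-fold lower (log2 ratio −1.90). Rtp2 reached 88.3 in mOSN against 40.8 in O/Tet3, 2.17-fold lower (log2 ratio −1.10). The pair therefore changed order, with Rtp1 at 1.23 times the Rtp2 value in mOSN and 0.695 times in O/Tet3. This ratio within a library does not depend on the scaling between libraries and differed 1.77-fold. By value Rtp1 ranked 140 among all rows in mOSN against 1183 in O/Tet3, and Rtp2 ranked 190 and 730. Comparing levels of different genes takes the values as per transcript length, as Cuffdiff gives them, which the file does not state.

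Reep1, the membrane-shaping member first linked to odorant receptor export, was the most abundant Reep gene in mOSN and was also lower in O/Tet3. Its value was 13.6 in mOSN against 5.38 in O/Tet3, 2.52-fold lower (log2 ratio −1.19). Of the 10 members 8 were compared. Among these 8, Rtp1, Rtp2 and Reep1 were the 3 at least 2-fold lower on the log2(value + 1) scale, where 12.0% of the 12943 compared rows were lower. They were also the 3 members with a value of 10 or more in mOSN, and among all 3216 rows at that level 16.4% were lower. That level was asked of mOSN only, the library in which they were high, and Reep1 was below it in O/Tet3. Centred on the median of rows at 1 or more in both libraries, the ratios were −2.10 for Rtp1, −1.30 for Rtp2 and −1.40 for Reep1, and 15.1% of compared rows were lower.

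**Figure D1:**
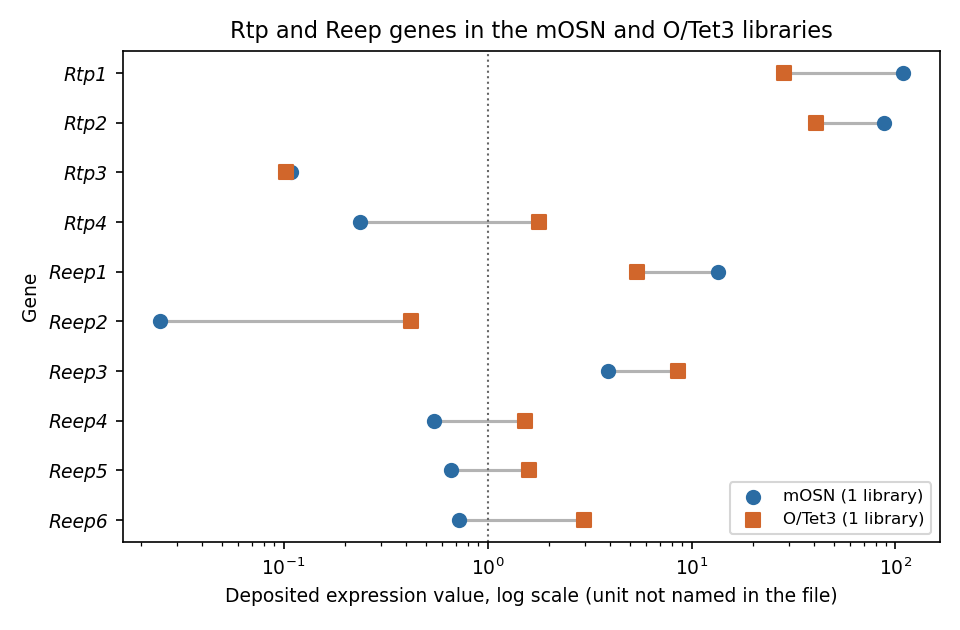
Deposited values (horizontal log axis, unit not named in the file) of the 10 Rtp and Reep genes in the mOSN library (circles) and the O/Tet3 library (squares), 1 library each; the dotted line marks a value of 1. Rtp1, Rtp2 and Reep1 lie highest in mOSN against lower in O/Tet3, Rtp3 lies at the same trace level in both, and the other members lie higher in O/Tet3.

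Set against Omp, the gene at which the reporter and the driver act, Rtp2 and Reep1 stood at closer proportions in the 2 libraries than Rtp1 did. Omp was at 298 in mOSN against 139 in O/Tet3, 2.14-fold lower. Rtp2 amounted to 29.7% of the Omp value in mOSN against 29.3% in O/Tet3. Reep1 amounted to 4.55% of it in mOSN against 3.86% in O/Tet3. Rtp1 amounted to 36.4% of the Omp value in mOSN against 20.4% in O/Tet3. These are proportions of values in single libraries, so their precision is not known. They also depend on the reference gene. Among 16 genes of odorant transduction that were lower in O/Tet3, Omp had the smallest fold, and the median fold was 4.63. The transduction gene Adcy3 was 3.88-fold lower, near the 3.82 of Rtp1. Adcy3 was also the row closest to Rtp1 in both values, from which a similar fold follows.

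Rtp4, the interferon-induced member, was low in mOSN against higher in O/Tet3. Its value was 0.236 in mOSN against 1.78 in O/Tet3, 7.55-fold higher (log2 ratio 1.17). Its centred log2 ratio was 0.96, below the 2-fold line. Rtp3, the liver member, was at 0.109 in mOSN against 0.103 in O/Tet3, a trace level in both libraries.

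Reep6, which is best known from rod photoreceptors, was the only Reep gene counted as higher. It was at 0.724 in mOSN against 2.98 in O/Tet3, 4.11-fold higher (log2 ratio 1.21, or 1.0 when centred). Rtp4 and Reep6 were thus 2 of the 8 compared members counted as higher, where 16.5% of compared rows were higher. After centring 1 of the 8, Reep6, was higher, against 11.3% of compared rows. Rtp4 and Reep6 both reached a value of 1 only in O/Tet3, so they entered the comparison through the library in which they were high.

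Reep3, a member that clears endoplasmic reticulum from chromosomes in dividing cells, was at 3.89 in mOSN against 8.61 in O/Tet3, a 2.21-fold difference. Its log2 ratio of 0.97 lay just under the line. Reep3 thereby exceeded Reep1 in O/Tet3, at 1.60 times its value, whereas Reep1 was at 3.49 times the Reep3 value in mOSN. Reep4, the close relative of Reep3, was at 0.549 in mOSN against 1.52 in O/Tet3. Reep5, of the tubule-curving branch, was at 0.665 in mOSN against 1.60 in O/Tet3. Neither passed the line, with log2 ratios of 0.70 for Reep4 and 0.64 for Reep5. Reep2, the neuronal relative of Reep1, stayed under 1 in both libraries, at 0.0247 in mOSN against 0.420 in O/Tet3 (log2 ratio 0.47). Of the 6 Reep genes, 5 thus had a larger value in O/Tet3, with Reep1 the exception. Among these 5, Reep4, Reep5 and Reep6 reached 1 only in O/Tet3, and Reep2 in neither library. The share of all rows with a larger value in O/Tet3 was not counted. The median log2 ratio over all compared rows was also positive, at 0.21.

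**Figure D2:**
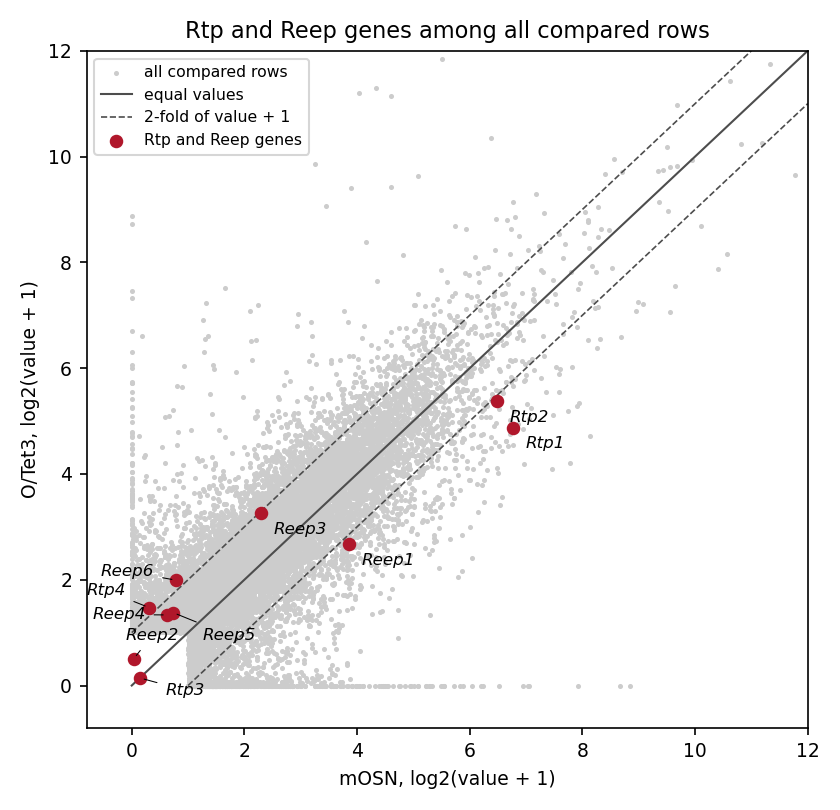
log2(value + 1) in mOSN (horizontal) and O/Tet3 (vertical) for compared rows (grey) and the 10 Rtp and Reep genes (red), with lines of equality and of 2-fold difference; 15 rows at 12 or more in either library lie outside the axes. Rtp1, Rtp2 and Reep1 lie on the lower side, Rtp4 and Reep6 just past the upper 2-fold line, and Reep3 just inside it.

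Summed over the 10 members, the value was 216 in mOSN against 91.5 in O/Tet3, 2.37-fold lower. Rtp1 and Rtp2 made up 90.9% of that sum in mOSN against 75.5% in O/Tet3. Reep3 made up 1.80% of it in mOSN against 9.41% in O/Tet3. The highest and lowest members were 4382-fold apart in mOSN and 396-fold apart in O/Tet3. The median log2 ratio of the 8 compared members was 0.67, against 0.21 over all compared rows, but it joins 3 abundant lower genes with 5 scarce genes of larger value in O/Tet3 and describes neither. Of those 8 members, 4 were at 1 or more in both libraries and the other 4 (Rtp4, Reep4, Reep5 and Reep6) only in O/Tet3.

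Read counts are not in the file, but the low values move in steps of whole reads. Over 5514 low rows the most frequent ratio put 1 read at a value 1.89 times larger in O/Tet3 than in mOSN. Olfactory receptor genes within a low range of values, chosen by hand for each library, had medians of about 0.0263 in mOSN and 0.0495 in O/Tet3. These were taken as the value of 1 read, from 16 receptors in mOSN against 120 in O/Tet3. For a gene model as long as a receptor's, the Reep2 values correspond to about 1 read in mOSN against 8 in O/Tet3, and the Rtp3 values to about 4 and 2. Exact binomial 95% intervals of the fold were taken on these reads, rounded to whole numbers. The interval of Reep2 was 2.02 to 669, beside a fold of the values of 17.0. It rests on 8 reads in O/Tet3, whereas the ratio of the values lies nearest to 1 read in mOSN against 9 in O/Tet3. The interval of Rtp3 was 0.0852 to 6.57, beside a fold of the values of 0.942. Rtp4 corresponds to about 9 reads in mOSN against 36 in O/Tet3, and its fold to an interval of 3.56 to 17.8. The intervals were 2.54 to 6.57 for Reep6, 1.55 to 5.09 for Reep4 and 1.38 to 4.24 for Reep5. They cover counting error only, not the spread between animals or libraries, and a longer gene model would rest on more reads. Rtp1, Rtp2, Reep1 and Reep3 each correspond to at least 109 such reads in each library. Rtp4, Reep4, Reep5 and Reep6 reached a value of 1 only in O/Tet3, the library through which they entered the comparison.

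Most genes of odorant transduction were lower in O/Tet3, as Rtp1, Rtp2 and Reep1 were. Of 19 compared transduction genes 16 were lower and 1 was higher, against 12.0% lower and 16.5% higher over all compared rows. Their median log2 ratio was −2.10. The folds of the 16 ran from 2.14, for Omp, to 10.96, for Ric8b, the exchange factor of the olfactory G protein, which was at 279 in mOSN against 25.4 in O/Tet3. Rtp1, at 3.82-fold, had a smaller fold than 12 of these 16, and Rtp2 and Reep1 each had a smaller fold than 15. The 16 were kept for passing the 2-fold line, so genes with small folds are absent from this ranking. The compared transduction genes that did not pass it had smaller folds than Rtp1, Rtp2 and Reep1. The higher gene was Cnga3, a channel subunit of cones, at 0.0564 in mOSN against 1.42 in O/Tet3. Gng13, the gamma subunit of that G protein complex, stood at 91.9 in mOSN against 9.63 in O/Tet3.

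Of 9 compared transcription factors that act on receptor genes, 5 were lower, 0 higher and 4 neither. Over all compared rows 12.0% were lower and 16.5% higher. The median log2 ratio of these factors was −1.25. Lhx2, a homeodomain factor, was at 35.9 in mOSN against 9.27 in O/Tet3, 3.87-fold lower. Ebf3, of the Ebf family whose motif core is marked in the promoter windows, was at 60.9 in mOSN against 16.2 in O/Tet3. Atf5, a factor of the receptor feedback pathway, was at 93.7 in mOSN against 20.6 in O/Tet3. Ebf2, Emx2, Bptf and Ldb1 had log2 ratios from −0.74 to −0.37.

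The machinery with which Reep proteins shape the endoplasmic reticulum was mostly within 2-fold. Of 20 compared partners 2 were higher, 1 was lower and 17 were neither, against 16.5% higher and 12.0% lower over all compared rows. Their median log2 ratio was 0.22 (−0.016 with upper quartile scaling). Atl1, encoding the membrane-fusing atlastin 1, which like Reep1 is mutated in spastic paraplegia, was higher, at 1.30 in mOSN against 11.5 in O/Tet3. Arl6ip1, another shaping protein, was at 18.2 in mOSN against 45.8 in O/Tet3. The reticulon gene Rtn3 was lower, at 51.9 in mOSN against 23.3 in O/Tet3, a fold of 2.23 that lies near those of Rtp2 and Reep1.

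Most genes for the folding and export of membrane proteins were within 2-fold. Of 22 folding chaperones and lectins 6 were higher, 1 was lower and 15 were neither, against 16.5% higher and 12.0% lower over all compared rows, with a median log2 ratio of 0.73. Canx, the membrane lectin calnexin, was at 71.2 in mOSN against 198 in O/Tet3. Pdia6, a disulfide isomerase, was at 10.1 in mOSN against 31.6 in O/Tet3. After centring 3 of the 22 were higher, where 11.3% of compared rows were, and after scaling by the upper quartile also 3. Of 13 genes of the COPII coat, which buds cargo from the endoplasmic reticulum, 1 was higher, 0 lower and 12 neither, with a median of −0.03. The higher gene was Sec23a, at 3.63 in mOSN against 10.1 in O/Tet3. Sec24d, a cargo-binding subunit, was at 5.83 in mOSN against 2.49 in O/Tet3, a log2 ratio of −0.97 just inside the line, and 1 COPII gene was lower after centring.

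**Figure D3:**
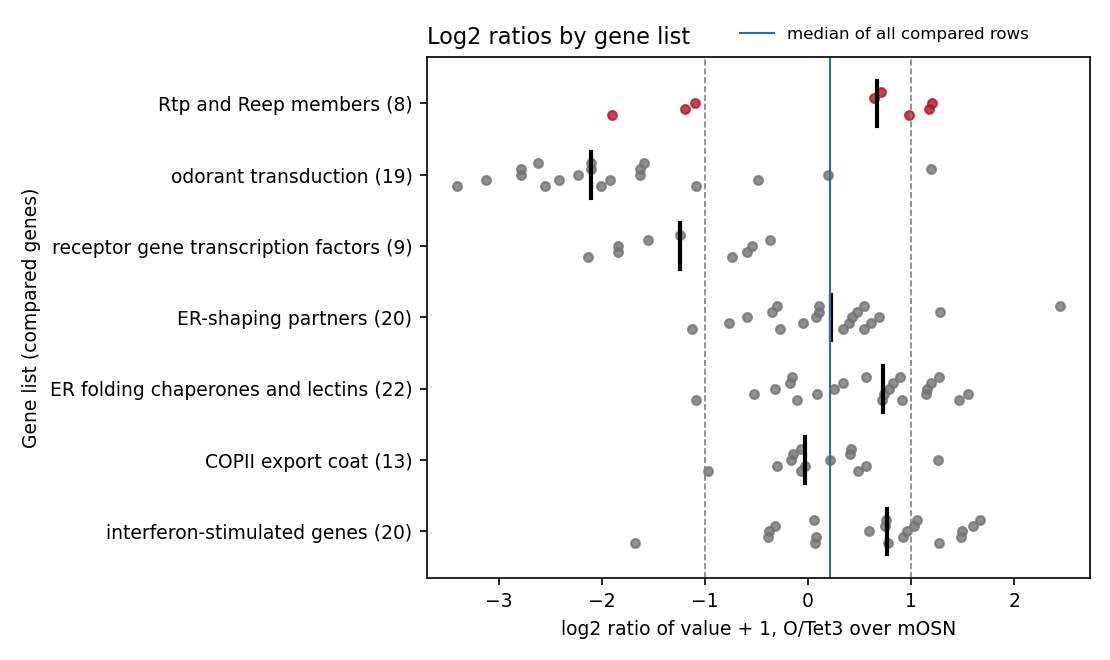
Log2 ratios of value + 1 (horizontal, O/Tet3 over mOSN) for the compared genes of each list (rows, number in brackets); each point is 1 gene, black bars are list medians, dashed lines mark 2-fold and the blue line is the median of all compared rows, 0.21. The Rtp and Reep genes split between 3 lower genes and 5 above 0, while the transduction genes centre on −2.10 and the chaperones on 0.73.

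Rtp4 was set beside 29 other genes induced by interferon, a list of antiviral proteins and their regulators. Of the 20 compared, 7 were higher and 1 was lower, against 16.5% higher and 12.0% lower over all compared rows. Their median log2 ratio was 0.77, against 0.21 over all compared rows. Eif2ak2, the kinase that senses double-stranded RNA, was at 1.29 in mOSN against 6.30 in O/Tet3. Oasl2 was at 0.160 in mOSN against 2.26 in O/Tet3, and Ifi35 at 0.934 and 4.86. Ifit1 went the other way, at 10.9 in mOSN against 2.73 in O/Tet3. Of all 29, 22 had a larger value in O/Tet3 and 6 a smaller one. Isg15, a defining gene of the response, was among those 6, at 0.554 in mOSN against 0.459 in O/Tet3, and was chosen after its values were seen. Of the 20 compared genes, 10 reached 1 only in O/Tet3 and so had to be larger there. After centring 5 of the 20 were higher, against 11.3% of compared rows. With a floor of 5 in place of 1, fewer of these genes were compared, 1 was higher and the median was 0.058. At that floor 19.6% of all compared rows were higher, and their median was 0.29. Whether Rtp4 and these genes share a source of their difference was not tested.

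**Figure D4:**
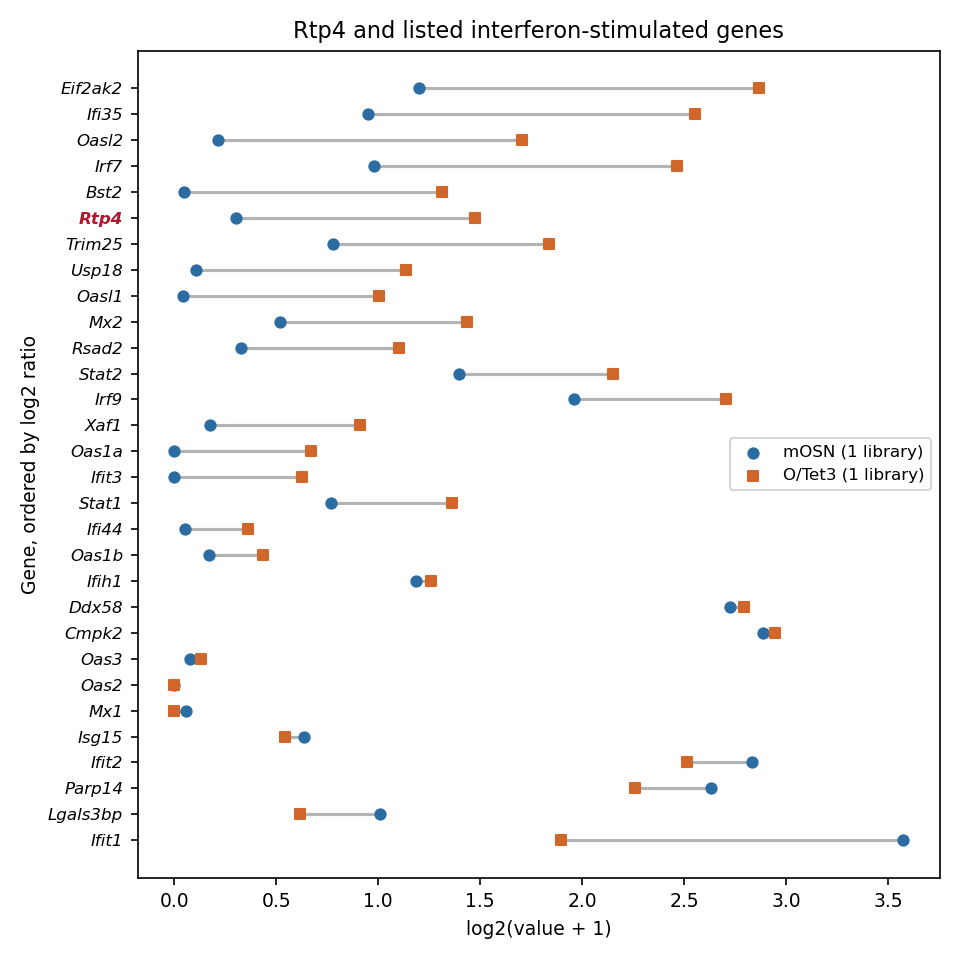
log2(value + 1) in mOSN (circles) and O/Tet3 (squares), 1 library each, for Rtp4 (red label) and 29 interferon-stimulated genes, ordered by log2 ratio. Rtp4 lies among the upper genes, Ifit1 is the one counted as lower, and Oas2 is listed at 0 in both libraries.

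In the RefSeq gene order (GRCm38.p6) Rtp1, Rtp4 and Rtp2 lie close together, with Masp1 and Sst between them and St6gal1 and Bcl6 as the outer protein-coding neighbours. Levels in this stretch did not move as a block. St6gal1, a sialyltransferase next to Rtp1, was at 5.35 in mOSN against 5.18 in O/Tet3. Masp1 was at 0.0716 in mOSN against 0.0396 in O/Tet3, and Sst, encoding somatostatin, was at 0.0467 in mOSN but listed at 0 in O/Tet3. Bcl6, a transcriptional repressor next to Rtp2, was at 12.3 in mOSN against 4.67 in O/Tet3, 2.64-fold lower. The RefSeq span of Rtp4 overlaps Masp1, and that of Reep3 overlaps Jmjd1c, a demethylase-family gene at 10.1 in mOSN against 13.6 in O/Tet3. The sources used here do not give the strand setting of the authors' counting, so reads shared by overlapping genes could not be told apart. Around Rtp3, Lrrc2 was at 0.102 in mOSN against 0.169 in O/Tet3, and Ltf, encoding lactoferrin, at 0.477 and 0.0152.

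The rows closest to Rtp1 in the plane of both log2 values were Adcy3, Jakmip1, Ell3 and Pcdhb1, at distances of 0.11 to 0.27 log2 units over 2 libraries. Adcy3, the adenylyl cyclase of odorant transduction, was at 115 in mOSN against 29.7 in O/Tet3, 3.88-fold lower. For Reep1 the closest rows were Tmprss6, Slc7a5, Gatc and Ide, at distances of 0.057 to 0.089. Their folds ran from 2.37 to 2.78, around the 2.52 of Reep1. The closest rows were picked for values near those of Rtp1 or Reep1 in both libraries, so similar folds follow from the choice.

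The labels were checked on the transgene, with Tet3 at 3.72 in mOSN against 145 in O/Tet3. Markers of other cells were present in both libraries, and their part in the member values was not tested. Of 13 compared immature neuron markers 4 were higher and 2 lower, against 16.5% higher and 12.0% lower over all compared rows. All 15 summed to 214 in mOSN against 244 in O/Tet3, and 8 of them had a smaller value in O/Tet3. Gap43 was at 6.41 in mOSN against 34.8 in O/Tet3, and Dpysl5 at 7.98 against 1.46. Progenitor markers summed to 21.1 and 37.4, mostly from Pcna, and sustentacular markers to 33.8 and 15.8, of which Ugt2a1 held 15.6 and 2.53. Basal, gland and microvillous markers summed to 5.41 in mOSN against 5.67 in O/Tet3. Of these, Pou2f3 was higher, at 0.582 against 2.90, and O/Tet3 listed Ascl3 and Cftr at 0, against 1.58 and 1.02 in mOSN. The basal cell markers Krt5, Krt14 and Trp63 were also listed at 0 in O/Tet3, against traces of 0.116, 0.0645 and 0.0261 in mOSN. Glia, blood, immune and vessel markers summed to 70.7 and 43.4, mostly hemoglobin genes. The 1 lower gene of that list was Fabp7, at 4.78 against 0.0607, while Pecam1 was at 0.121 against 0.508. Sox10 and C1qa were listed at 0 in O/Tet3, against traces of 0.0327 and 0.165 in mOSN. The 6 largest rows of the table held 90.0% of the summed values in mOSN against 96.9% in O/Tet3.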

How the data were processed

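Per the labels' protocols, ribosomal RNA was removed from total RNA of sorted cells (RiboMinus kit) before library preparation (ScriptSeq kit). Per the submitters' processing notes, Bowtie, Bowtie2, Cuffdiff and build mm9 were used, with no versions or roles; the annotation and strand setting are not given in the sources used here. The deposited log2 columns hold log2(value + 1): when this is undone, 99.4% of mOSN and 99.3% of O/Tet3 values above 0.01 have no more than 6 significant digits, as printed expression values have. The deposited log2 ratio column equals the difference of the library columns. The file gives no read totals.

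Columns were assigned by their names. The design assumed a linear unit, which was recovered from the log2 values. Values, folds, log2 ratios and list counts were computed with Python 3.11.15, numpy 2.4.6 and pandas 2.3.3. The calls were checked on folds planted without noise in the mOSN values of abundant rows, and the read steps on simulated reads. This does not cover the calls of low genes such as Rtp4 and Reep6. The rows named are the 10 members, Tet3, Omp, up to 4 genes per list with the largest ratio, the 4 rows nearest to the highest Rtp and Reep gene (receptors, small RNAs and clone-like names left out) and the neighbours of the Rtp genes. Besides the members there were 13 lists, of which 1, of liver and rod genes, is not reported here. Cnga3, Isg15, Pecam1, the transcription factors within 2-fold, the overlapping genes and the markers listed at 0 were added to these after their values were seen. The members and lists were chosen with earlier results of these data known. Alternatives were a pseudocount of 0.1 or none, a floor of 5 or none, a 3-fold line, and centring on the median or upper quartile.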

Additional observations from a re-analysis of the deposited data

How the results depend on the processing

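The count of 3 lower members was the same under every alternative except a 3-fold line, where it was 1 (Rtp1). The share of all compared rows that were lower was 15.6% with a pseudocount of 0.1, 13.1% with none, 11.1% with a floor of 5, 4.48% with no floor, 15.1% centred, 14.3% with upper quartile scaling and 5.20% at 3-fold. The count of higher members depended on the settings for low values: it was 5 with a pseudocount of 0.1 (23.4% of compared rows) and 5 with no pseudocount (24%), where Reep3, Reep4 and Reep5 passed the line too, 1 when centred on the median (11.3%), and 0 with a floor of 5 (19.6%) or a 3-fold line (5.76%). It stayed at 2 with no floor (6.17%) and with upper quartile scaling (11.5%). The median log2 ratio of the members was 1.21 with no pseudocount and −1.14 with a floor of 5, which leaves Rtp1, Rtp2, Reep1 and Reep3. A stricter floor or fold leaves fewer genes by construction. Without a pseudocount the log2 ratio of Reep2 was 4.09, resting on about 1 read in mOSN. Of 40 member ratios under alternatives, 29 moved by under 1 and kept their side of the 2-fold line, and 11 did not; 0 of them turned from higher to lower or back. Of the list values, 203 stayed close, 49 moved and 6 changed sign. The medians that changed sign were 0.31 for the COPII coat with a floor of 5, −0.016 for endoplasmic reticulum shaping genes with upper quartile scaling, −0.13 for accessory proteins of other receptors both centred and with upper quartile scaling, 1.87 for basal, gland and microvillous markers with no pseudocount, and −0.0018 for immature neuron markers with no floor. The cause was not tested. All compared rows split into 2135 higher and 1552 lower as reported, and into 1464 and 1953 when centred. No paired analysis was possible because there was only 1 library per group.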

Other observations

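Genes that help other G protein-coupled receptors to the surface or sort them were a mixed group. Of 11 listed, 6 were compared, 2 were higher and 0 lower, against 16.5% higher and 12.0% lower over all compared rows. The median log2 ratio was 0.07, or −0.13 when centred on the median of rows at 1 or more in both libraries. The receptor-sorting genes Gprasp1 and Gprasp2 were the higher pair, at 9.70 in mOSN against 25.6 in O/Tet3 and at 0.378 in mOSN against 12.2 in O/Tet3. Hspa8, the constitutive heat shock cognate, was at 300.3 in mOSN against 225 in O/Tet3. Ramp1, Ramp2 and Ramp3, partners of the calcitonin receptor family, were listed at 0 in both libraries.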
